A study of Rattus norvegicus with 6 samples.

Results

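The genes described here encode the chaperones, isomerases, translocation channel, signal peptidase, oligosaccharyltransferase and degradation factors of the endoplasmic reticulum (ER), measured in rat liver after a feeding period on little protein. A probe set, the group of array probes that reads 1 transcript, was taken where the platform annotation gave it exactly 1 gene symbol and that symbol was among 44 listed genes. All 44 were found, with 65 probe sets, among 14217 genes and 31042 probe sets tested. The livers came from male Wistar rats aged 6 weeks and weighing about 150 g, which had 4 days on pellets and 4 days of training on the 15P diet. The control group then ate 15P, and the low-protein group ate 5P, a diet of equal energy content, for 8 hours. Livers were taken after a further 16 hours without food, with 3 Affymetrix arrays in each group. The labels do not say that each array is a separate rat, so a p-value here covers the spread among these samples, which may be technical.

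The ER of the hepatocyte makes most plasma proteins. A nascent secretory protein enters the ER through the Sec61 channel, loses its signal peptide to signal peptidase and receives glycans from oligosaccharyltransferase. Chaperones and isomerases then fold it, and chains that fail to fold are returned to the cytosol for degradation. When unfolded chains accumulate, the unfolded protein response raises transcription of many of these genes through the factors ATF6 and XBP1.

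Values below are log2 of the deposited intensities, and differences are low protein minus control with a moderated standard error (SE) and, where given, an SD over 3 arrays. A gene passed the test at an adjusted p under 0.05 over all genes, and it was represented by its probe set of highest mean. All 44 members lay above the median gene level, the lowest at percentile 62.8. Median intensity per array ran from 33.34 to 34.32. The liver marker Alb read 14.40 in both diets, at the top of the intensity range, so it is a weak check. The next hepatocyte marker, Ttr, read 13.94 and 13.92. Among the arrays of the low-protein group, replicate 1 stood apart for these genes: it was the lowest of the 3 for 38 of the 44 members, against 37.3% of all genes.

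The isomerase gene Fkbp11 rose in low-protein livers, and the other member chaperones and isomerases read higher there without passing the test. This did not extend to 27 further ER folding genes (isomerases, oxidative folding genes and chaperone cofactors), of which 13 had a difference above 0. Some of the 27 read lower than any member, such as Pdia2, Fkbp7 and Fkbp14 at percentiles 7.1, 31.3 and 36.1. Fkbp11 passed the test and the other 43 did not, where 0.183% of all genes passed. In all, 38 of the 44 had a difference above 0, as had 57.6% of all genes, and their median was 0.19 against 0.03 over all genes. At an unadjusted p under 0.05, 14 members were higher and 0 lower, where 8.34% of all genes were higher and 7.98% lower. With arrays centred on the 75th percentile those shares over all genes were 12.5% and 5.58%, and with median centring 6.48% and 9.81%, while 18 and 12 members were higher and 0 lower. Groups did not overlap for 20 members with low protein above control and for 0 with low protein below, where the shares over all genes were 12.8% and 10.1%. Of the 65 probe sets 1 passed, that of Fkbp11, where 0.132% of all probe sets did.

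By role, the 17 chaperones and isomerases all had differences above 0, with a median of 0.31, and 9 of them were higher at an unadjusted p under 0.05. For this and the other roles, the shares over all genes were 57.6% above 0 and 8.34% higher at that level. The 14 genes of the translocon and signal peptidase had a median of 0.11, with 12 above 0 and 3 higher at that level. Taken apart, the 9 translocon genes had a median of 0.06 and the 5 signal peptidase genes one of 0.16. The 4 oligosaccharyltransferase genes had a median of 0.14 with 3 above 0, and none reached that level. The 6 degradation genes had a median of 0.09 with 4 above 0, and 1 reached it; leaving out an array gave 0.17 (low-protein replicate 1), 0.04 (replicate 2), 0.02 (replicate 3) or 0.03 (control replicate 1). By limma, Fkbp11 was the only gene of these roles to pass after adjustment. These role medians are descriptions, and no test between roles was made.

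**Figure D1:**
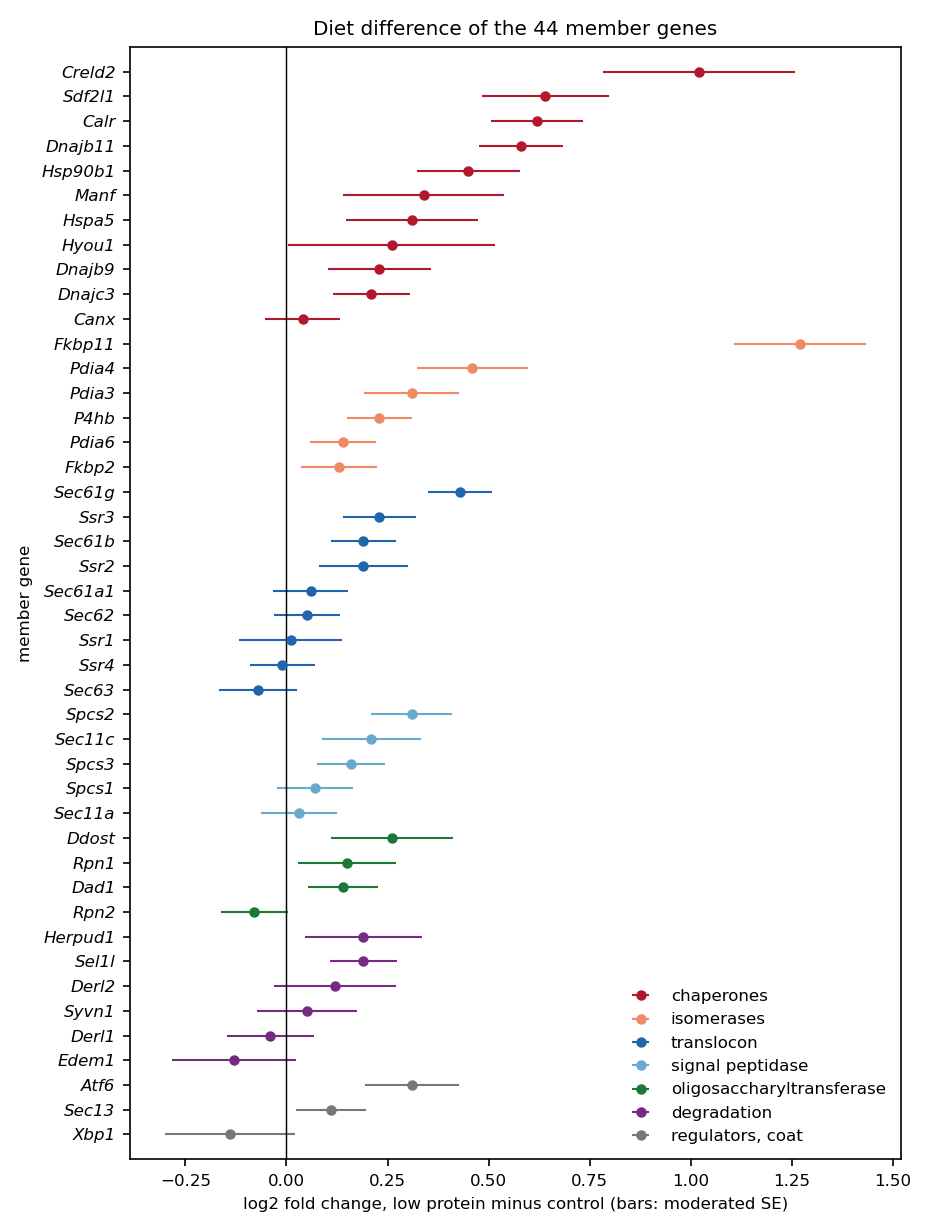
Difference between diets (log2 fold change, low protein minus control, horizontal axis) for each of the 44 member genes, grouped and coloured by role, with bars showing the moderated SE. Fkbp11 at 1.27 and Creld2 at 1.02 lie farthest to the right, and the lowest value is -0.14 for Xbp1.

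Fkbp11 encodes a prolyl isomerase of the ER, an enzyme that turns the peptide bond before proline. It read 7.86, 7.86 and 8.03 on control replicates 1, 2 and 3 and 8.79, 9.37 and 9.39 on low-protein replicates 1, 2 and 3. Every low-protein array lay above every control array, and low-protein replicate 1 was the nearest to them. The means were 7.92 ± 0.10 and 9.18 ± 0.34 (SD, n = 3 each), a difference of 1.27 (SE 0.163), or 2.41-fold, with limma's adjusted p = 0.0359. The call rested on all but 1 of the arrays: without low-protein replicate 1 the difference was 1.46 (adjusted p = 0.0124), and without any other array it was 1.16 to 1.32, with an adjusted p of 0.113 and 0.106 without control replicates 1 and 2, 0.0507 without control replicate 3, and 0.117 and 0.0988 without low-protein replicates 2 and 3. The other isomerase of that family here, Fkbp2, read 10.78 ± 0.04 and 10.91 ± 0.13, a difference of 0.13 (SE 0.0935), and its 3 probe sets gave 0.08 to 0.13.

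Disulfide isomerases make and rearrange the disulfide bonds of secreted proteins. Pdia4 read 11.24, 10.88 and 11.04 in control livers and 11.28, 11.63 and 11.65 in low-protein livers, a difference of 0.46 (SE 0.137, adjusted p = 0.171). Its lowest low-protein value stood just above the highest control value. Pdia3, the partner of the glycoprotein chaperones calreticulin and calnexin, read 11.83, 11.63 and 11.80 against 11.84, 12.20 and 12.13, a difference of 0.31 (SE 0.117, adjusted p = 0.253). Its other probe set gave 0.54, with groups that overlapped. P4hb, the classical protein disulfide isomerase, read 12.53, 12.53 and 12.50 against 12.68, 12.78 and 12.79, and the difference of 0.23 (SE 0.0801) came with small SDs of 0.02 and 0.06. For Pdia6, another isomerase of this family, the difference was 0.14 (SE 0.0815), also with groups that did not overlap. None of these 4 passed.

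Among the chaperones and their cofactors the largest difference was that of Creld2, a gene known to be induced by ER stress. It read 8.60, 8.52 and 8.65 in control livers and 8.99, 9.89 and 9.96 in low-protein livers. The control arrays lay close together, while low-protein replicate 1 stood well below the other two. The difference was 1.02 (SE 0.237, 2.03-fold, adjusted p = 0.119). Without low-protein replicate 1 it was 1.34 and passed (adjusted p = 0.0124, 0.0124 to 0.26 across the 17 alternatives). In that fit 2 members passed, Creld2 and Fkbp11, where 0.141% of all genes did.

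Calr and Dnajb11 were closer to the threshold and more even across arrays. Calr, which encodes the calcium-binding lectin chaperone calreticulin, read 9.71, 9.50 and 9.50 against 9.99, 10.26 and 10.30, a difference of 0.62 (SE 0.114, adjusted p = 0.081). The DnaJ cofactor gene Dnajb11, whose protein delivers clients to BiP, read 9.49, 9.32 and 9.25 against 9.79, 10.00 and 10.00, a difference of 0.58 (SE 0.104, adjusted p = 0.0765). For both genes the groups were separated by more than the within-diet SDs, which were 0.12 to 0.17. Neither passed under any of the 17 alternatives. Sdf2l1, which forms a complex with the Dnajb11 protein, read 9.24, 9.32 and 8.90 against 9.51, 9.86 and 10.00, a difference of 0.64 (SE 0.157, adjusted p = 0.133), again without overlap.

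Hspa5 and Hsp90b1 encode BiP and GRP94, the abundant Hsp70 and Hsp90 of the ER. Hspa5 read 12.30, 12.06 and 12.35 in control livers and 12.18, 12.78 and 12.67 in low-protein livers. Low-protein replicate 1 lay inside the control range and the other two lay above it. Its difference was 0.31 (SE 0.163, 95% interval -0.07 to 0.68), and 0.49 without that array. Hsp90b1 read 11.72, 11.61 and 11.68 against 11.84, 12.26 and 12.27, a difference of 0.45 (SE 0.128, adjusted p = 0.164), with no overlap.

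The remaining chaperone genes had differences of 0.04 to 0.34 and none was past an unadjusted p of 0.05. Manf, an ER stress protein that binds BiP, had 0.34 (SE 0.199), with low-protein replicate 1 at 10.86 against 11.56 and 11.63 on replicates 2 and 3. Hyou1, an exchange factor for BiP, read 7.88 on low-protein replicate 2 against 6.91 and 6.95 on the others, and its difference of 0.26 turned to -0.06 without that array. The DnaJ cofactor genes Dnajb9 and Dnajc3 had 0.23 (SE 0.127) and 0.21 (SE 0.096), the latter without overlap. Canx encodes calnexin, the membrane-bound relative of calreticulin. It read 10.99 ± 0.06 and 11.03 ± 0.12, a difference of 0.04 (95% interval -0.18 to 0.25) beside the 0.62 of Calr. The other probe sets of Canx gave 0.33, without overlap, and -0.15, so they disagreed.

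**Figure D2:**
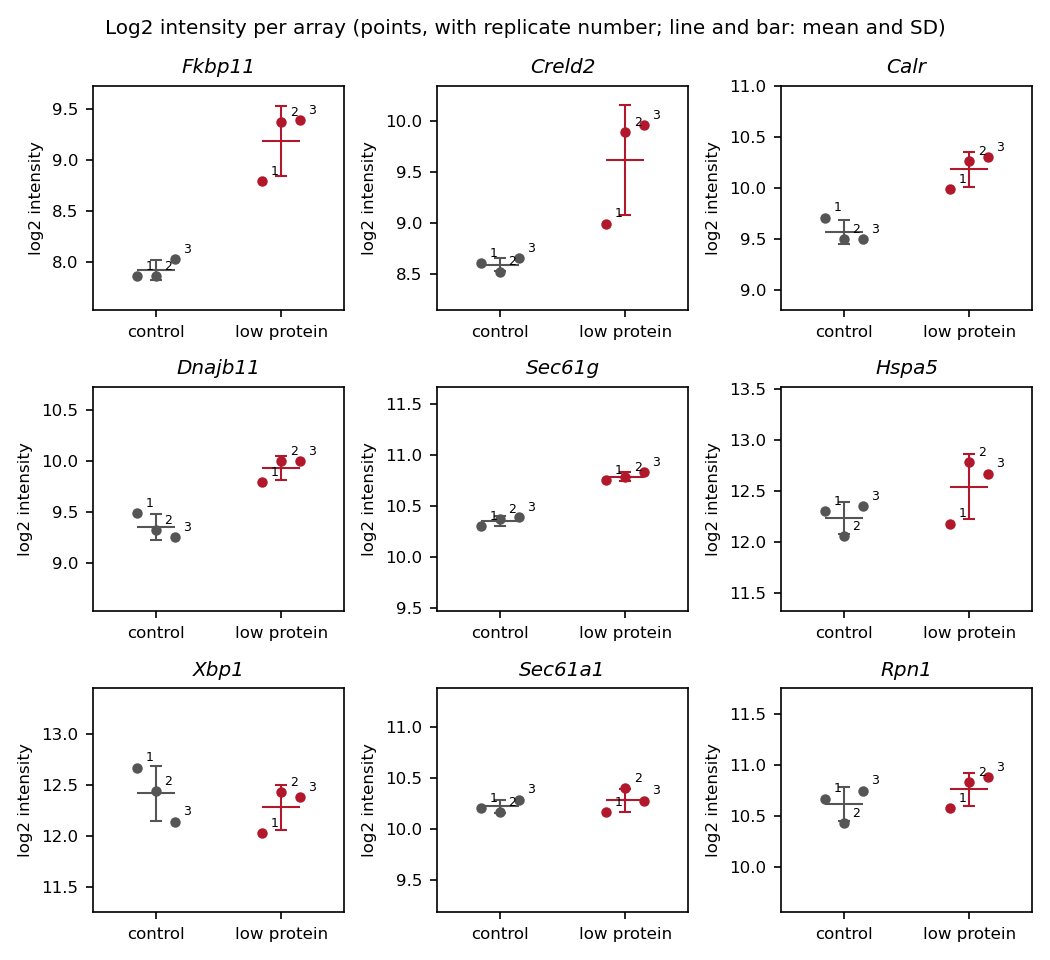
Log2 intensity on each array (points, marked with the replicate number) for 9 member genes in control and low-protein livers, with the mean and SD of 3 arrays as a line and bar; every panel spans the same height on the log2 scale. Low-protein replicate 1 is the lowest of its diet in all 9 panels, and the diets are separate for Fkbp11, Creld2, Calr, Dnajb11 and Sec61g.

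Xbp1 and Atf6 encode the transcription factors themselves. Xbp1 read 12.67, 12.44 and 12.14 in control livers and 12.03, 12.43 and 12.38 in low-protein livers. The groups overlapped, and the difference was -0.14 (SE 0.16, 95% interval -0.51 to 0.23). Atf6 read 9.34, 9.47 and 9.48 against 9.53, 9.92 and 9.78, a difference of 0.31 (SE 0.116, adjusted p = 0.241) without overlap, but its second probe set gave -0.01. XBP1 is activated by splicing of its mRNA and ATF6 by cleavage of the protein, and neither event was measured here. For Sec13, a coat protein of the vesicles that leave the ER, the difference was 0.11 (SE 0.0866).

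Promoters were searched for the elements through which ATF6 and XBP1 are known to act. The rule that chose the genes did not read promoter sequence. Many members are known targets of these factors, however, so a high share among members is not independent of the choice. The stretches run from 250 bases before to 50 after each RefSeq gene start (assembly GRCr8), and 38 of the 44 members had an entry. Searched on both strands were the ER stress response element ERSE (CCAAT, any 9 bases, CCACG), ERSE-II (ATTGG, any 1 base, CCACG) and the element UPRE (TGACGTGG). ERSE was found in 7 members, 18.4% of those with an entry, against 22 of 33469 promoters (0.0657%). ERSE-II was found in 3 members (7.89%), against 17 promoters (0.0508%), and UPRE in 1, Hyou1 (2.63%), against 199 (0.595%). The UPRE of Hyou1, at positions -191 to -184, shares bases with an ERSE-II on the opposite strand, at -188 to -178. A match describes letters and does not show binding.

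The stretches of 80 bases shown here hold the element (in capitals) of 5 folding genes with differences of 0.31 to 1.02 and of Canx and Xbp1, which carry it with differences of 0.04 and -0.14. Each is written 5′ to 3′ on the strand of the gene, and capitals beginning CGTGG mark an element read on the opposite strand. The last, 150 bases before the start of Fkbp11, is shown because that gene passed the test; its window held none of the 3 elements in these letters.
Hspa5, chr3:38452936-38453015, plus strand: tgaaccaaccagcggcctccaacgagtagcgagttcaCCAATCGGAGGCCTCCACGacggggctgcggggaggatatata
Hsp90b1, chr7:23012316-23012395, minus strand: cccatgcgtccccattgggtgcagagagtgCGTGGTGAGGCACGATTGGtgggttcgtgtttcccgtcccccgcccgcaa
Calr, chr19:40213117-40213196, plus strand: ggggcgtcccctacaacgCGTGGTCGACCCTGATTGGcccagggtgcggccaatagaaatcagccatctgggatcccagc
Creld2, chr7:121789209-121789288, plus strand: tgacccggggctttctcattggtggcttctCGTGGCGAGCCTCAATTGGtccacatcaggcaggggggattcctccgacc
Dnajb11, chr11:91672800-91672879, minus strand: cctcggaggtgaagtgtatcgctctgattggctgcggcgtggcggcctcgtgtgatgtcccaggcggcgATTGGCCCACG
Canx, chr10:35158028-35158107, minus strand: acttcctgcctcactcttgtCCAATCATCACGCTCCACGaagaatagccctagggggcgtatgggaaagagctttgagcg
Xbp1, chr14:84604528-84604607, plus strand: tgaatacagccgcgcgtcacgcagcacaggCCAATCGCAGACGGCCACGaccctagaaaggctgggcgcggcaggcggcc
Fkbp11, chr7:131754262-131754411, minus strand: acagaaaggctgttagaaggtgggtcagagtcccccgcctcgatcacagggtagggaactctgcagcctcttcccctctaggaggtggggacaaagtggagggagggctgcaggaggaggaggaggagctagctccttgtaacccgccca

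The 10 members with ERSE or ERSE-II had differences of -0.14 to 1.02 with a median of 0.28, and 9 of the 10 were above 0. The 28 members with an entry and neither element had a median of 0.15, a range of -0.13 to 1.27, and 24 of 28 above 0. Of all genes, 57.6% were above 0. At an unadjusted p under 0.05, 4 of the 10 and 8 of the 28 were higher, where 8.34% of all genes were. In both sets the differences ran from just below 0 to above 1.

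**Figure D3:**
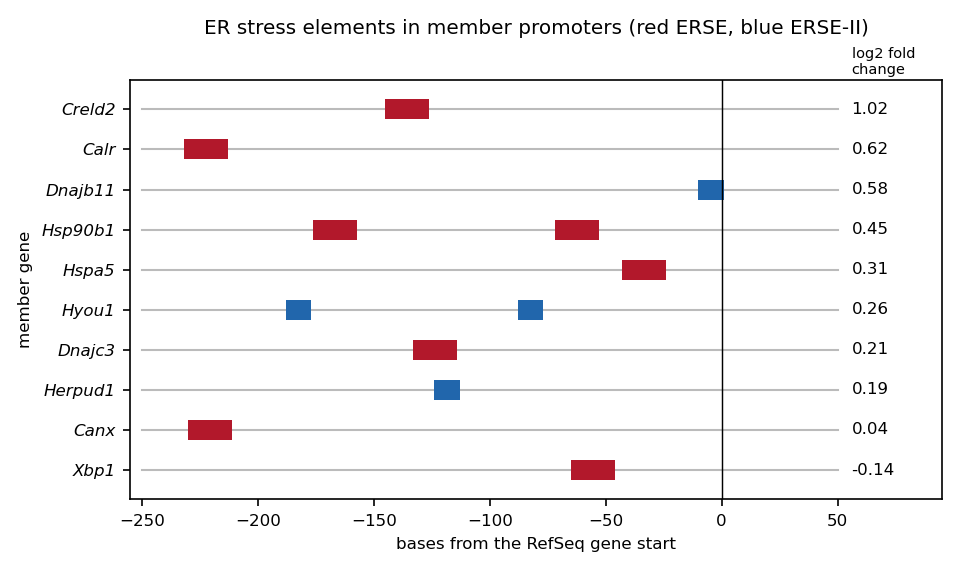
Position of ERSE (red) and ERSE-II (blue) in bases from the RefSeq gene start for the 10 members that hold one, ordered by their log2 fold change between diets, which is printed at the right. The elements lie between positions -232 and 1, and the fold changes run from 1.02 to -0.14.

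The channel genes differed among themselves. Sec61g, the small gamma subunit of the Sec61 channel, read 10.30, 10.37 and 10.39 in control livers and 10.75, 10.78 and 10.83 in low-protein livers. The groups did not overlap, with an SD of 0.04 in each diet, and the difference was 0.43 (SE 0.0794, adjusted p = 0.081). It passed in 1 of 17 alternatives, where only genes above the median intensity were tested (adjusted p = 0.0482, the range being 0.0482 to 0.22) and 1.11% of the genes tested passed. Low-protein replicate 1 did not stand apart here: it read 0.03 to 0.08 below the others on the log2 scale.

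Sec61b, the beta subunit, read 11.88 ± 0.06 and 12.07 ± 0.03, a difference of 0.19 (SE 0.0805) without overlap. Sec61a1, which encodes the alpha subunit that forms the pore, read 10.21, 10.17 and 10.29 against 10.17, 10.40 and 10.28. Its groups overlapped, its difference was 0.06 (95% interval -0.15 to 0.27), and its 3 probe sets gave 0.03 to 0.08. Sec62 and Sec63 help proteins enter after their synthesis is complete, and they had 0.05 (SE 0.082) and -0.07 (SE 0.0967). The 4 Sec63 probe sets ran from -0.61 to 0.16. Of these, 3 separated the diets, 2 downward and 1 upward, so this gene has no single reading. The probe set at -0.61 read only 3.64 in control and 3.03 in low-protein livers, where the chosen one read 9.55 and 9.49.

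The TRAP complex sits beside the channel and helps some signal peptides to insert. Ssr3, its gamma subunit, read 10.90, 11.06 and 11.05 against 11.15, 11.24 and 11.30, a difference of 0.23 (SE 0.0897, adjusted p = 0.271) without overlap, and its other probe sets gave 0.10 and 0.15. Ssr2 had 0.19 (SE 0.11), Ssr1 had 0.01 (SE 0.128) and Ssr4 had -0.01 (SE 0.0808). The groups of these last 3 overlapped.

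Signal peptidase cuts the signal peptide from the entering chain. Spcs2, a noncatalytic subunit, read 10.32, 10.44 and 10.27 against 10.58, 10.58 and 10.81, a difference of 0.31 (SE 0.1, adjusted p = 0.196) without overlap. Spcs3 had 0.16 (SE 0.0839) and the catalytic subunit gene Sec11c had 0.21 (SE 0.123), both without overlap. Sec11c read 10.10 and 10.04 on low-protein replicates 1 and 2, near the control mean of 10.00, and 10.48 on replicate 3, and its difference was 0.07 without replicate 3. The other catalytic subunit gene, Sec11a, had 0.03 (SE 0.0938), and Spcs1 had 0.07 (SE 0.0941).

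Oligosaccharyltransferase transfers the preformed glycan to asparagine residues. Rpn1, a subunit that holds substrates near the active site, read 10.67, 10.43 and 10.75 in control livers and 10.58, 10.83 and 10.88 in low-protein livers. The groups overlapped, with low-protein replicate 1 inside the control range, and the difference was 0.15 (SE 0.122, 95% interval -0.13 to 0.43). Ddost had 0.26 (SE 0.151) with the same overlap: 10.08 on low-protein replicate 1 against 10.55 and 10.63 on replicates 2 and 3. Dad1 had 0.14 (SE 0.0869) and Rpn2 had -0.08 (SE 0.0828).

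Degradation genes spread around 0. Sel1l, the adaptor of the ubiquitin ligase that disposes of misfolded ER proteins, read 8.41, 8.44 and 8.37 against 8.54, 8.57 and 8.68, a difference of 0.19 (SE 0.0822, adjusted p = 0.304) without overlap. Syvn1, the ligase itself, had 0.05 (SE 0.124), and its scaffold Herpud1 had 0.19 (SE 0.145), with control values that ranged from 11.40 to 11.95. The channel genes Derl1 and Derl2 had -0.04 (SE 0.107) and 0.12 (SE 0.15). Edem1, which directs trimmed glycoproteins to disposal, had -0.13 (SE 0.153). Control replicate 2 read 12.45 for Edem1 against 11.85 and 11.96 on replicates 1 and 3, and the difference was 0.05 without it. Another Edem1 probe set gave -0.38 with low protein below control on every array.

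**Figure D4:**
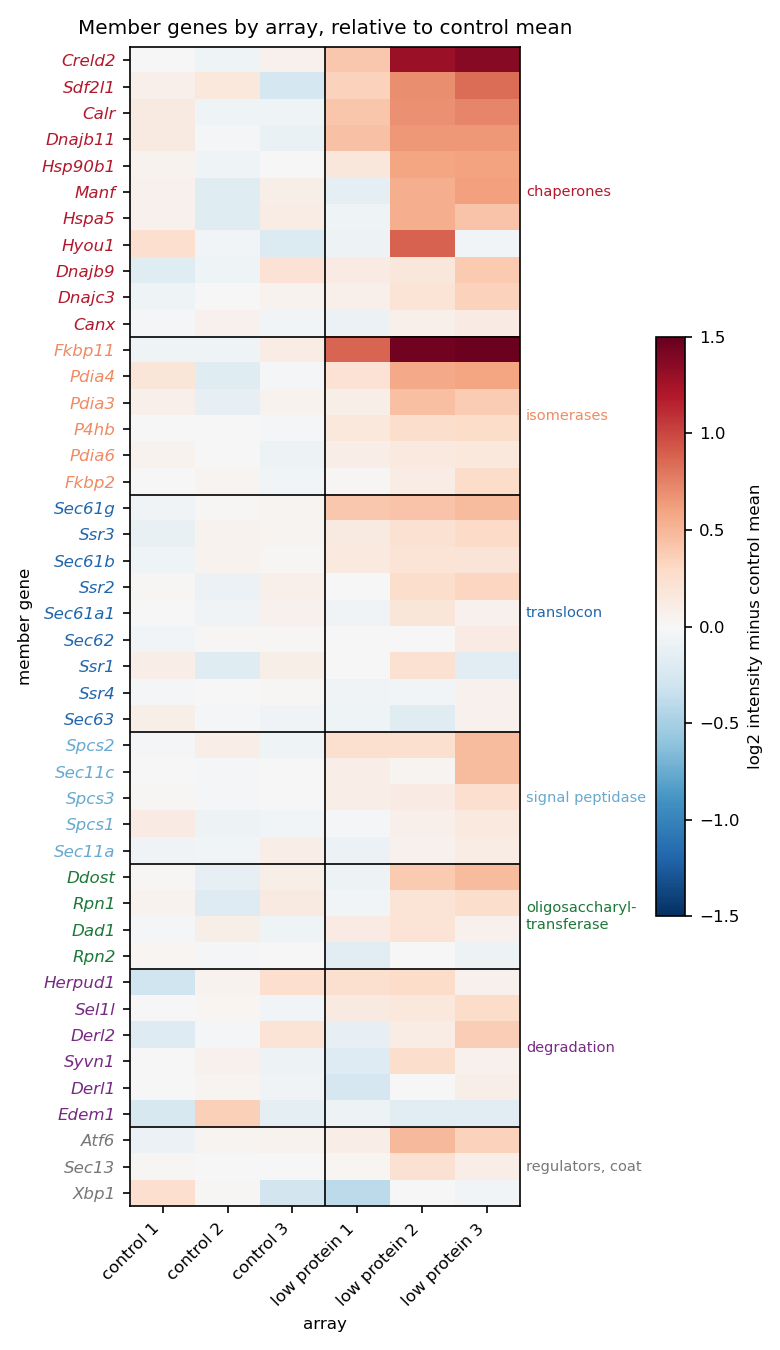
Log2 intensity of each member gene on each of the 6 arrays, relative to the mean of the 3 control arrays (red higher, blue lower), with genes grouped by role and ordered by their difference between diets. The strongest red lies on low-protein replicates 2 and 3 among the chaperones and isomerases, and low-protein replicate 1 is paler.

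The arrays of the low-protein group differed in how high these genes read. The 17 chaperones and isomerases stood on average 0.18, 0.55 and 0.54 above the control mean on low-protein replicates 1, 2 and 3, while the 3 control arrays lay between -0.04 and 0.05. All 17 were lowest on low-protein replicate 1 among the arrays of that diet. The 27 other members stood 0.01, 0.15 and 0.17 above the control mean on the same arrays, and 21 of them were lowest on replicate 1. Over all genes the corresponding means were 0.00, 0.01 and 0.04. Above the highest control value lay 21 members on low-protein replicate 1, 33 on replicate 2 and 35 on replicate 3, where the shares over all genes were 29.1%, 31.1% and 37.9%. Without low-protein replicate 1 the median of the 11 chaperones was 0.59 in place of 0.34, and 18 members were higher at an unadjusted p under 0.05, where 8.01% of all genes were. Without low-protein replicate 2 or 3 that count was 9, where 6.96% and 6.56% of all genes were.

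**Figure D5:**
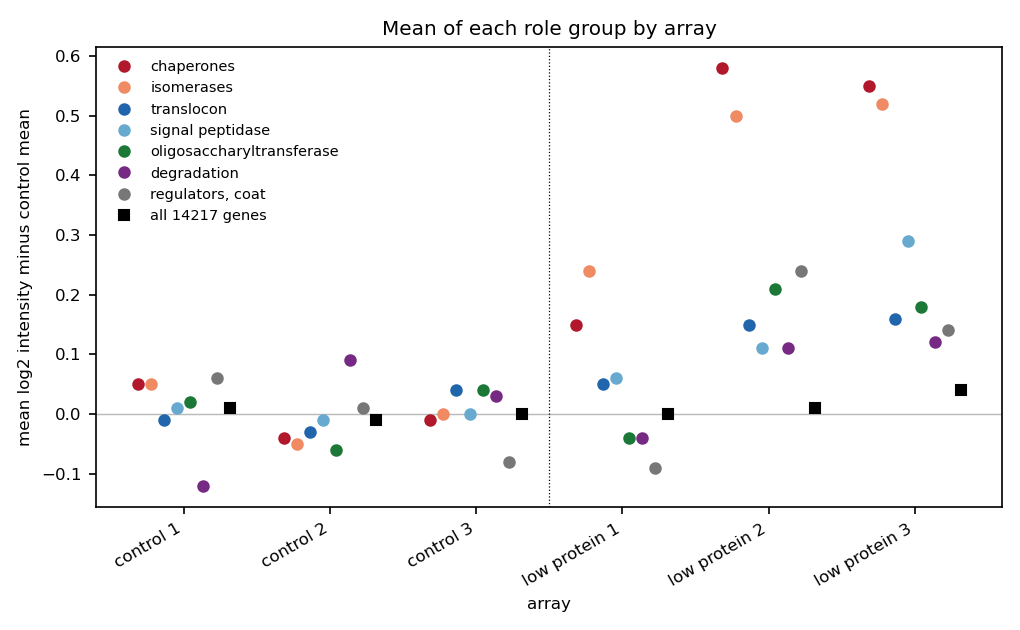
Mean log2 intensity of each role group on each array, relative to the mean of the 3 control arrays (circles), with the mean of all 14217 genes as black squares. On low-protein replicates 2 and 3 the chaperones stand at 0.58 and 0.55 and the isomerases at 0.50 and 0.52, with every other group at or below 0.29.

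Markers of other cells and of RNA quality were read on the same arrays; in whole liver, a change in the number of cells of a type and a change in RNA per cell cannot be told apart. Plasma cells and pancreatic acinar cells are rich in rough ER. Of 8 measured plasma and B cell markers 0 passed, their array means ran from 4.53 to 4.76 in control and from 4.62 to 4.73 in low-protein livers, and 5 of the 8 had a difference above 0, with a median of 0.01. Their differences ran from -0.12 for Mzb1 to 0.30 for Cd79b, and Pou2af1, at 0.17, had groups that did not overlap. Jchain, the antibody joining chain gene, had -0.09. The part of plasma and B cells in the result was not tested. Of 12 acinar markers 0 passed, with means of 3.98 to 4.27 and 4.22 to 4.29, and 10 of the 12 had a difference above 0, with a median of 0.12. The trypsinogen gene Prss1 had 0.26 and Cpa1 had 0.31, with low-protein means of 3.24 and 3.30, while Cela1 read 9.71 in control and 9.90 in low-protein livers. The part of acinar cells was not tested. The 6 red blood cell markers had a median of 0.26, with array means of 5.54 to 5.61 and 5.73 to 5.97 and 0 passing. Of these, 5 had a difference above 0, as had 57.6% of all genes, and Epb42 had -0.06. Hbb at 0.48 and Alas2 at 0.43 read higher without overlap, as did 12.8% of all genes. The mean of the 6 stood 0.23, 0.38 and 0.14 above control on low-protein replicates 1, 2 and 3. On the same arrays the folding genes stood at 0.18, 0.55 and 0.54. The part of red blood cells in the result was not tested. Kupffer cell markers, of the liver's resident macrophages, had a median of 0.19 over 8 genes, 7 of them above 0, with 0 passing. Their means were 7.99 to 8.37 and 8.30 to 8.67, highest on low-protein replicate 3. Their part was not tested either. Sinusoidal endothelial, stellate, cholangiocyte, T and NK cell and neutrophil markers had medians of -0.11 to 0.05, with 0 passing. The 8 proliferation genes had a median of 0.12, all 8 above 0 and 0 passing, with array means of 3.83 to 4.28 and 3.92 to 4.64. Relative to the control mean they stood at 0.10, 0.60 and -0.12 on low-protein replicates 1, 2 and 3. The part of proliferation was not tested. The 13 hepatocyte markers had a median of -0.02 with 0 passing, and array means of 13.58 to 13.62 and 13.52 to 13.56 that did not overlap. Of these, Apoa1, Apoa2, Fga and Cps1, at -0.19, -0.27, -0.17 and -0.23, read lower with groups that did not overlap, and Serpina1 read higher at 0.05 without overlap. Over all genes, 10.1% read lower and 12.8% higher without overlap. Cps1 alone of the 13 was past an unadjusted p of 0.05 by limma. The part of the hepatocyte markers in the result was not tested. The 3′ minus 5′ difference of the actin control probe sets ran from 1.37 to 1.61 in control and from 1.41 to 1.60 in low-protein livers, and that of GAPDH from 0.27 to 0.37 and from 0.38 to 0.52. The GAPDH values of the diets did not overlap, and their part in the result was not tested.

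Other genes of the secretory pathway were read from 6 further lists, and none of their members passed the test, where 0.183% of all genes did. At an unadjusted p under 0.05, 8.34% of all genes were higher and 7.98% lower. Unfolded protein response signalling had a median of -0.01 over 15 genes, with 3 higher at an unadjusted p under 0.05. These were Trib3, a pseudokinase gene downstream of ATF4, at 0.78 (SE 0.159, adjusted p = 0.0918), Creb3l3, a membrane-bound liver transcription factor, at 0.45 (SE 0.128), and Ddit3, which encodes CHOP, at 0.27 (SE 0.108). Eif2ak3, the ER stress kinase PERK, had -0.19 (SE 0.135). Of the 15 genes, 7 had a difference above 0, as had 57.6% of all genes. Atf4 itself had 0.08 (SE 0.196), and Atf3, Ppp1r15a and Chac1 had -0.72 (SE 0.544), -0.30 (SE 0.264) and -0.03 (SE 0.0986).

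Signal recognition and membrane targeting had a median of 0.04 over 15 genes, with 3 higher and 1 lower at that level. The shares over all genes, here and for the lists that follow, were 8.34% higher and 7.98% lower. Get1 and Get4, of the pathway for tail-anchored proteins, had 0.38 (SE 0.107) and 0.29 (SE 0.0997), and Sec61a2, the second alpha subunit gene, had -0.33 (SE 0.0882). Other isomerases, oxidative folding genes and chaperone cofactors had a median of -0.0037 over 27, with 1 higher and 1 lower. Pdia5 had 0.27 (SE 0.114), Tmx2 had 0.35 (SE 0.154) and Tmx4 had -0.48 (SE 0.149). Glycan assembly and trimming had a median of 0.08 over 28 genes, 3 of them higher: the mannosyltransferase genes Alg12 and Alg3 at 0.42 (SE 0.139) and 0.24 (SE 0.0983), and Krtcap2, an oligosaccharyltransferase subunit gene, at 0.24 (SE 0.103).

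Other degradation genes had a median of 0.04 over 22 genes and 1 higher, Ufm1, a ubiquitin-like modifier, at 0.38 (SE 0.0913); Ube2j1, a conjugating enzyme gene, had -0.27 (SE 0.123) and Ddrgk1 had 0.24 (SE 0.115). Transport between the ER and the Golgi had a median of 0.04 over 34 genes, with 5 higher and 1 lower. Of all genes, 8.34% were higher and 7.98% lower at an unadjusted p under 0.05. The cargo receptor genes Tmed9 and Tmed2 had 0.37 (SE 0.103) and 0.25 (SE 0.0863), and the fusion protein gene Bet1 had 0.36 (SE 0.104). The medians of all 6 lists, from -0.01 to 0.08, lay near the 0.03 of all genes and below the 0.31 of the chaperones and isomerases.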

How the data were processed

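Column-extracted total RNA of rat liver, 6 samples, was labelled with a 3′ IVT kit and hybridised to Affymetrix arrays (source: the labels' protocols). Per the submitters' processing notes the authors used RMA, and they deposited one intensity per probe set. Because RMA equalizes arrays, a shift common to most transcripts is removed. The software and its version: not given in the sources used here. The values were read as linear, since they reached 21668, and log2 was taken. After 57 control probe sets were removed, 31042 remained, of which 20826 had 1 symbol.

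Diets were compared by a two-sided test in limma 3.58.1 (R 4.3.3; functions lmFit, then eBayes; 4 residual degrees of freedom per gene), with Benjamini-Hochberg adjustment over all 14217 genes or all probe sets and no filter on low values. Members, role groups, lists, tests and the rule for named genes were chosen with earlier results of these data known. The rule gives array values for members with an unadjusted p under 0.05 and for Hspa5, Xbp1, Atf6, Sec61a1 and Rpn1, ranges for the others, and the 3 genes of smallest p per further list. Eif2ak3, Atf4, Atf3, Ppp1r15a, Chac1, the array values of members outside the rule and the markers singled out were chosen after their values were seen. Same-numbered arrays deviated with correlations of -0.0873, -0.0272 and -0.102, so replicate numbers do not pair them. The procedure was tested on simulated data. The simulated differences were larger than those of most members, so that test does not cover the range of most results here. Protein sequences were not analysed here. Figures were drawn with matplotlib 3.10.9.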

Additional observations from a re-analysis of the deposited data

How the results depend on the processing

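The 17 alternatives changed the prior variance (trend, robust), the scaling (median or 75th-percentile centring, quantile), the low-intensity filter (25th or 50th percentile), the array weights, the replicate block, the arrays used (1 left out at a time) or the value per gene (averaged probe sets, probe set of largest SD). The count of member genes past the test, 1 as reported, was 2 with the filter at the 50th percentile, 0 with the replicate block and 0 to 2 with 1 array left out, where 1.11%, 0.0985% and 0.0844% to 0.38% of genes passed. That of probe sets, also 1, was 0 with the block and 0 to 2 with 1 array left out, where 0.0193% and 0.0515% to 0.351% of probe sets passed. The block left Fkbp11 at 1.27 (adjusted p = 0.0887), and replicate numbers do not pair these arrays. The 14 members higher at an unadjusted p under 0.05 were 9 to 18 with 1 array left out, where 6.15% to 8.76% of genes were higher, and the 0 lower were 2 with the probe set of largest SD, where 8.50% were lower. With 75th-percentile centring, which shifted the median of all probe sets by 0.049, the translocon median was 0.11 in place of 0.06. The medians of other degradation and of targeting genes were 0.08 and 0.09, each in place of 0.04. With 1 array left out the chaperone median was 0.26 to 0.59, that of chaperones and isomerases 0.24 to 0.49, the translocon 0.05 to 0.12, signal peptidase 0.07 to 0.19 and degradation 0.02 to 0.17. The causes were not tested.

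These members changed sign, among them Hyou1 at 0.26, Edem1 at -0.13 and Derl2 at 0.12. Ssr1 had -0.01 with median centring, -0.04 with averaged probe sets and -0.09 with the probe set of largest SD. Ssr4 had 0.04 with 75th-percentile centring and 0.0039 with quantile normalization, and Derl1 had 0.004 with that centring and 0.01 with averaged probe sets. With 1 array left out the ranges were -0.09 to 0.10 for Ssr1, -0.04 to 0.02 for Ssr4, -0.11 to 0.06 for Derl1, -0.25 to 0.05 for Edem1, -0.06 to 0.43 for Hyou1, -0.06 to 0.17 for Syvn1, -0.01 to 0.10 for Canx, -0.01 to 0.09 for Sec11a and -0.0048 to 0.24 for Derl2.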

Other observations

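Beyond the members, 18 measured genes carried ERSE or ERSE-II in the same promoter window, 39 promoters of 33469 (0.117%) holding either element. Of the 18, 16 had a difference above 0, as had 57.6% of all genes, and their median was 0.14. None passed the test by limma, where 0.183% of all genes did. At an unadjusted p under 0.05, 4 were higher and 1 lower, where 8.34% of all genes were higher and 7.98% lower. The highest was Cdc45, a DNA replication gene, at 0.44, and the lowest were Pan2 and Ppm1l at -0.28 and -0.26. Nucb1, a calcium-binding protein gene, had 0.07 and the oxidase gene Ero1b had 0.16.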
